A study of Cricetulus griseus with 19 samples.

Results

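The 5 genes described here are Gpx1, Prdx1, Txnrd1, Gstp1 and Taldo1, which remove peroxides and reactive compounds or supply the reducing power to do so. They were chosen by name, as the transcript targets whose RefSeq accession matches these symbols in the Chinese hamster. Earlier results of these data were known when the names were chosen. Each symbol matched 1 target, giving 5 of 46718 targets in the deposited tables, of which 528 could be matched to any symbol. The 19 polyA RNA libraries came from Paradaux, a line made from CHO-K1, an established Chinese hamster ovary cell line. Paradaux cells carry a synthetic circuit through which a signal made by the cells acts back on their own number. After long-term culture, 4 libraries were made from uncontrolled growth, 7 from negative feedback, where the signal limits the population, and 7 from paradoxical feedback, where the signal drives both growth and death, and 1 further library was parental. Cells of every group were harvested after 2 days at a confluence under 80%. The labels give no clone, dose or culture length and do not say whether numbered cultures were kept apart throughout, so a p-value here reflects only the spread between these samples, which may be technical.

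Hydrogen peroxide is cleared in the cytosol by parallel enzyme systems. Gpx1, a selenium-containing glutathione peroxidase, uses glutathione, whereas Prdx1, a peroxiredoxin, is recharged by thioredoxin, which Txnrd1 (thioredoxin reductase) keeps reduced at the expense of NADPH. Gstp1 joins glutathione to reactive electrophiles. The pentose phosphate pathway provides much of the NADPH in its oxidative branch, and Taldo1 (transaldolase) works in its non-oxidative branch, which returns sugar phosphates to glycolysis. Txnrd1, Prdx1, Gstp1 and Taldo1 are known targets of NRF2, the transcription factor of the oxidant response.

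Each library held 9.91 to 13.2 M estimated counts. Values are in CPM, counts scaled to a common library size after TMM normalization, and errors are SD over cultures unless marked as SE. The inserted construct was present in every library, at 1227 to 2222 CPM. Of 22 fixed markers of CHO and other cell types only Actb was matched, by a target at 0 to 1.28 CPM, with shared reads and far too low to stand for that gene, so the cell type could not be checked by markers. Negative feedback cultures 3 to 7 stand apart from cultures 1 and 2, and comparisons are also given with those 5 left out where this moves the value of a member. In those 5 libraries 6.12 to 7.22% of counts fell on targets under 800 nt, against 14.1 and 13.3% in cultures 1 and 2 of that condition, 12.2 to 13.4% under uncontrolled growth, 8.50 to 12.4% under paradoxical feedback and 11.8% in the parental library. Gstp1 (633 nt) and Prdx1 (600 nt) are targets of that length, Gpx1 (890 nt) and Taldo1 (1226 nt) are somewhat longer, and Txnrd1 has 3261 nt. The counts of Prdx1 include reads shared with similar transcripts, whereas the other 4 members had whole counts in all 19 libraries.

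**Figure D1:**
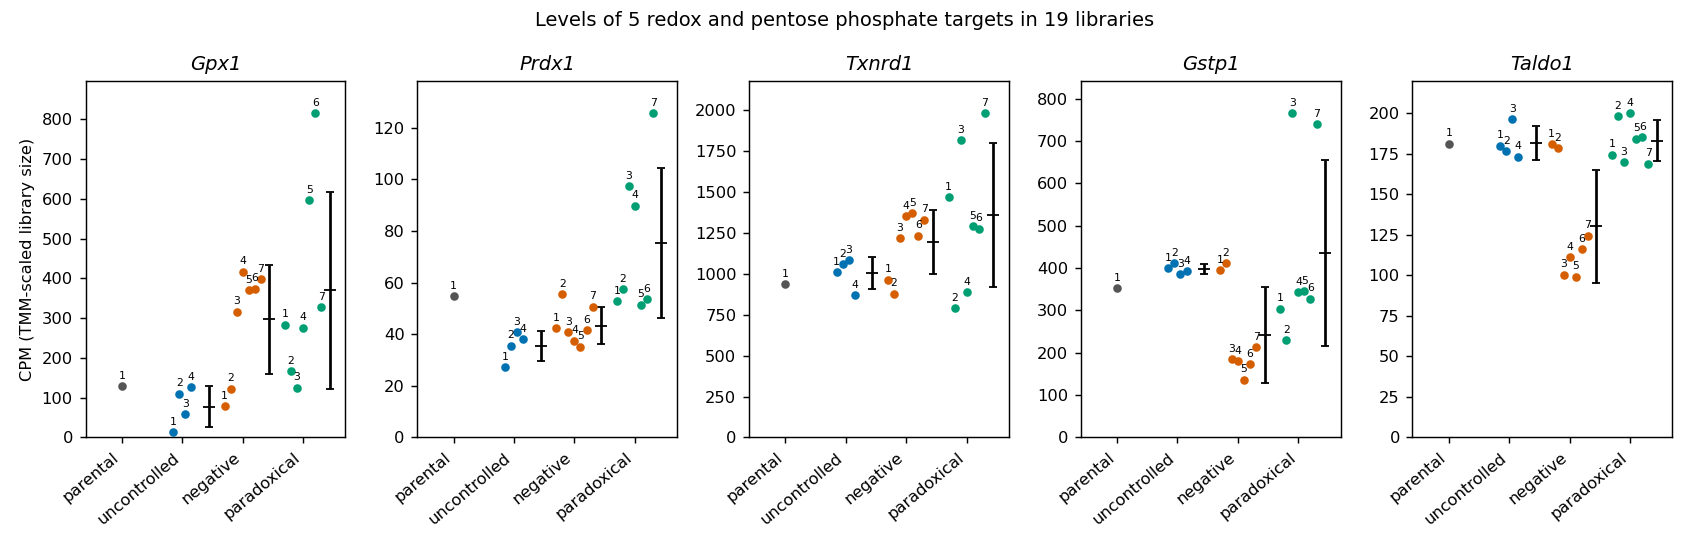
CPM of the 5 genes in each of 19 libraries (linear axes from 0; points are libraries, numbered by replicate; bars are mean ± SD for groups with more than 1 library). Gpx1 ranges from 13.3 to 815 CPM, Gstp1 and Taldo1 are low in negative feedback cultures 3 to 7, and Gstp1, Prdx1 and Txnrd1 are highest in paradoxical feedback cultures 3 and 7.

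Gpx1 varied more than any other member, and it rose under paradoxical feedback. It stood at 13.3, 110, 57.6 and 127 CPM in uncontrolled cultures 1 to 4. Under paradoxical feedback it stood at 284, 166, 125, 276, 596, 815 and 328 CPM in cultures 1 to 7. All but culture 3 lay above every uncontrolled culture, and culture 3 lay just below uncontrolled culture 4, so the groups overlapped by that pair. The means were 370 ± 248 CPM (SD, n = 7) and 77.0 ± 51.8 CPM (SD, n = 4). This log2 fold change of 2.26 ± 0.65 (SE) passed edgeR's quasi-likelihood test narrowly (adjusted p = 0.0467). Leaving out 1 library at a time kept the fold change between 1.91 and 2.62, but ended the call for 13 of 18 libraries, namely each uncontrolled culture, negative feedback cultures 3 to 7 (part of the same fit) and paradoxical feedback cultures 1, 5, 6 and 7 (edgeR adjusted p from 0.0552 to 0.113 in those fits). In bulk RNA, a change in the share of cells with high Gpx1 and a change in Gpx1 RNA per cell cannot be told apart. The same holds for the genes below. Without uncontrolled culture 1, where Gpx1 was lowest at 162 counts, the log2 fold change was 1.91 (edgeR adjusted p = 0.113). With the share of counts on short targets as a covariate it was 1.98 (edgeR adjusted p = 0.112), and over all 28 alternatives it was called in 8.

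Under negative feedback Gpx1 took separate levels in the same cultures that stand apart as a whole. Cultures 1 and 2 had 79.4 and 123 CPM, as much as some uncontrolled cultures, and there were 317, 417, 370, 374 and 397 CPM in cultures 3 to 7. The parental library was at 129 CPM, slightly above the highest uncontrolled culture. The log2 fold change against uncontrolled growth was 1.95 ± 0.64 (SE) and missed the threshold (edgeR adjusted p = 0.0594), and it was 0.40 (edgeR adjusted p = 1) with cultures 3 to 7 left out. Without negative feedback culture 1 or 2 the difference was called (edgeR adjusted p = 0.0213 and 0.0309), as it was by DESeq2 (adjusted p = 0.00576). Gpx1 was therefore high in the 5 libraries in which the share of counts on short targets was lowest. Between both feedback conditions the log2 difference of Gpx1 was 0.32 ± 0.50 (SE, edgeR adjusted p = 0.842), and with only cultures 1 and 2 on the negative feedback side it was 1.88 (edgeR adjusted p = 0.208).

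Prdx1 rose under paradoxical feedback, with all 7 cultures above the uncontrolled range, as for 7.94% of all tested targets. It stood at 27.2, 35.5, 40.7 and 38.0 CPM in uncontrolled cultures 1 to 4. The paradoxical feedback cultures stood at 52.7, 57.4, 97.3, 89.8, 51.4, 53.6 and 126 CPM, and the parental library, at 54.8 CPM, was above the uncontrolled range too. Paradoxical feedback cultures 3, 4 and 7 were the highest. On the log2 scale the difference was 1.09 ± 0.25 (SE, edgeR adjusted p = 0.0211), from 35.4 ± 5.84 CPM (SD, n = 4) to 75.4 ± 29.1 CPM (SD, n = 7). The call was lost without uncontrolled culture 1, 2 or 4 (edgeR adjusted p = 0.0817, 0.0716 and 0.0530). It was also lost with paradoxical feedback cultures 3 and 7 left out together, which gave 0.79 (edgeR adjusted p = 0.0576). These cultures have the highest Prdx1 and were singled out after their values were seen, so a smaller difference was fixed by the choice. With the short-target share as a covariate the log2 difference remained at 1.09 (edgeR adjusted p = 0.0403). Under negative feedback Prdx1 ranged from 35.2 to 55.5 CPM with a median of 41.6, overlapping the uncontrolled cultures (0.29 ± 0.24, SE; edgeR adjusted p = 0.418). The difference between both feedback conditions, 0.80 ± 0.21 (SE), missed the threshold (edgeR adjusted p = 0.0831). It was called without negative feedback culture 2 (0.87, edgeR adjusted p = 0.0407) and by DESeq2 (0.74, adjusted p = 0.0141), and was 0.64 without cultures 3 to 7 (edgeR adjusted p = 0.308).

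Txnrd1 did not pass the test in any comparison. It was at 1010, 1059, 1087 and 869 CPM in uncontrolled cultures 1 to 4 and at 936 CPM in the parental library. Paradoxical feedback cultures 1 to 7 were at 1472, 793, 1820, 888, 1291, 1277 and 1982 CPM. The lowest of them lay below and the highest far above the uncontrolled range, and the log2 fold change was 0.43 ± 0.22 (SE, edgeR adjusted p = 0.213). Under negative feedback cultures 1 and 2 had 965 and 880 CPM of Txnrd1, whereas cultures 3 to 7 had 1218 to 1372 CPM, and the log2 fold change was 0.25 ± 0.21 (SE, edgeR adjusted p = 0.440). Without cultures 3 to 7 it was -0.12. Between both feedback conditions the log2 difference was 0.19 ± 0.18 (SE, edgeR adjusted p = 0.694), or 0.57 without negative feedback cultures 3 to 7 (edgeR adjusted p = 0.283).

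Gstp1 was even across uncontrolled cultures and spread widely under both kinds of feedback. The uncontrolled cultures were at 399, 412, 385 and 393 CPM, a 1.07-fold range, and the parental library was lower, at 352 CPM. Negative feedback cultures 1 and 2 were at the same level, at 396 and 412 CPM, and cultures 3 to 7 at 185, 181, 136, 172 and 214 CPM. The log2 fold change of the whole group, -0.71 ± 0.35 (SE), did not pass (edgeR adjusted p = 0.167), and without cultures 3 to 7 it was 0.03. Under paradoxical feedback the 5 cultures 1, 2, 4, 5 and 6 were at 229 to 346 CPM, below every uncontrolled culture, while cultures 3 and 7 were at 765 and 740 CPM, above every other library of the series. The mean, 436 ± 220 CPM (SD, n = 7), falls between these levels, and no culture had a value near it. The log2 fold change was 0.14 ± 0.35 (SE, edgeR adjusted p = 0.863) and turned to -0.36 (edgeR adjusted p = 0.513) without cultures 3 and 7. Both were singled out after their values were seen, so a fall was fixed by the choice. Without either of them alone the log2 fold change was -0.06 and -0.04. Against negative feedback it was 0.85 ± 0.30 (SE, edgeR adjusted p = 0.162), and without negative feedback cultures 3 to 7 it was 0.12 (edgeR adjusted p = 0.896).

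Taldo1 kept to a narrow range outside negative feedback. It was at 180, 176, 196 and 173 CPM in uncontrolled cultures, at 181 CPM in the parental library and at 169 to 200 CPM under paradoxical feedback, with means of 182 ± 10.3 CPM (SD, n = 4) and 183 ± 12.8 CPM (SD, n = 7) for uncontrolled and paradoxical cultures. The log2 difference between these was 0.01 ± 0.16 (SE, edgeR adjusted p = 0.993), and its sign turned with RLE scaling (-0.04) and with library size alone (-0.10). Under negative feedback cultures 1 and 2 were at 181 and 178 CPM and cultures 3 to 7 at 100, 111, 99.1, 116 and 124 CPM. The log2 fold change against uncontrolled growth was -0.48 ± 0.15 (SE) and just missed the threshold (edgeR adjusted p = 0.0562), with DESeq2 and limma-voom calling it lower (adjusted p = 0.0167 and 0.0273). Without negative feedback culture 1 or 2 edgeR called it too (adjusted p = 0.00839 and 0.0101). It was -0.01 without cultures 3 to 7 and -0.14 with the short-target share as a covariate (edgeR adjusted p = 1 and 0.911). Paradoxical against negative feedback gave 0.49 ± 0.13 (SE, edgeR adjusted p = 0.0894). Without negative feedback cultures 3 to 7 this was 0.03 (edgeR adjusted p = 0.873). It was called in 5 of 28 alternatives, among them the covariate, at 0.40 (edgeR adjusted p = 0.0139).

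**Figure D2:**
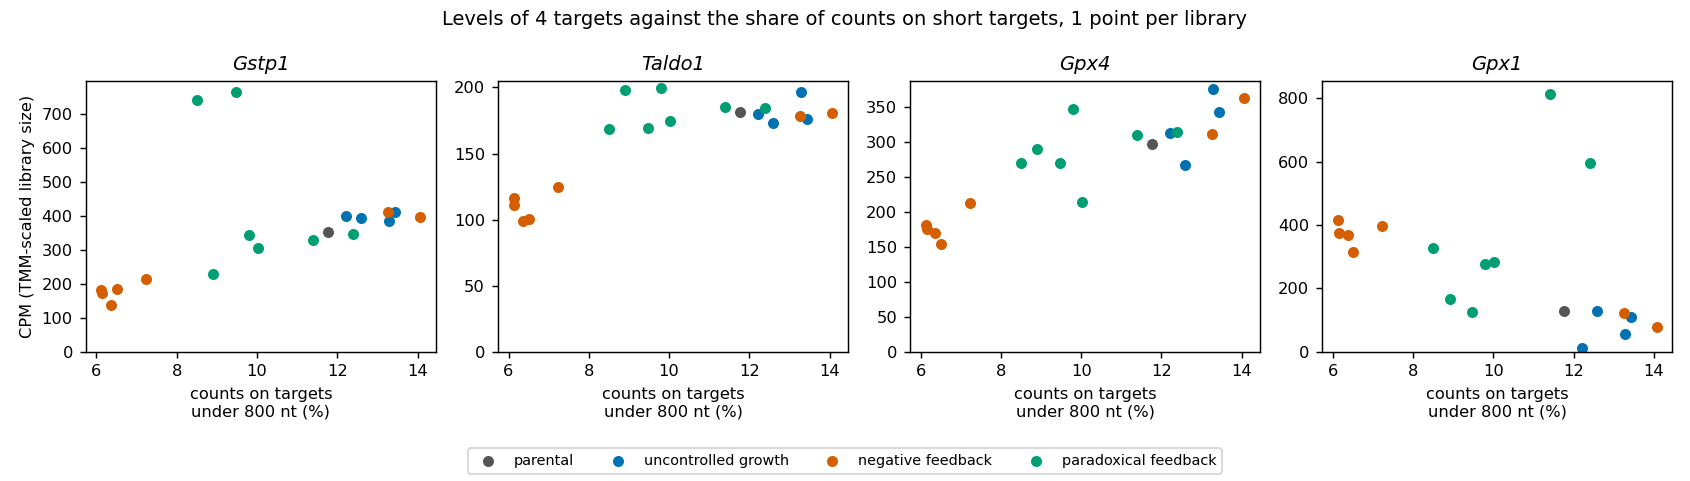
CPM of 4 targets (linear axes from 0) against the percentage of each library's counts on targets under 800 nt, 1 point per library, coloured by group. Negative feedback cultures 3 to 7 lie between 6.12 and 7.22% and hold low Gstp1, Taldo1 and Gpx4 but high Gpx1; the 2 paradoxical feedback libraries above 700 CPM of Gstp1 lie at 8.50 and 9.48%.

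The median short target was also lower under negative feedback. Under negative feedback the median log2 fold change against uncontrolled growth was -0.50 over 1607 tested targets under 800 nt and -0.30 over 3092 targets of 800 nt or more but under 1300 nt, against 0.15 over 23856 longer targets and 0.04 over all 28555. Under paradoxical feedback the corresponding medians were -0.22, -0.10, 0.07 and 0.02. Gstp1 at -0.71 and Taldo1 at -0.48 under negative feedback were below the medians of targets of their length. Gpx1 at 1.95, Prdx1 at 0.29 and Txnrd1 at 0.25 were above theirs. The covariate given above is a value per library, whatever a target's length, and follows the split among negative feedback cultures. It therefore cannot tell target length from that split, and the part of target length in these differences was not tested.

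Counted together, 2 of 5 members were called under paradoxical feedback against uncontrolled growth, both higher, where 4.93% of all tested targets were called higher and 6.43% in either direction (1408 higher and 427 lower, or 905 and 521 when scaled by library size alone). None was called under negative feedback, against 9.76% of all targets, or between both feedback conditions, against 0.27% of all targets (47 higher and 30 lower, or 1 and 10 with RLE scaling). At an unadjusted p under 0.05 by edgeR there were 2 members (Gpx1 and Taldo1) for negative feedback against uncontrolled growth, where 31.2% of all targets passed, and 3 (Prdx1, Gstp1 and Taldo1) between both feedback conditions, where 17.6% passed. DESeq2 called 2 members in each of these comparisons and limma-voom 1 in each. Both methods also called more of all targets than edgeR in each of them, as counted with the processing settings below. With negative feedback cultures 3 to 7 left out, the count of members under paradoxical feedback was again 2, while more of all targets were called. Leaving out uncontrolled culture 1, 2 or 4 brought the members' count to 0. So did leaving out paradoxical feedback cultures 3 and 7 together, a choice made after seeing the data. Fewer of all targets were called in that fit too. The members' median log2 fold change was 0.25 under negative feedback and 0.43 under paradoxical feedback, and 0.49 between both conditions, beside 0.04, 0.02 and -0.06 over all targets and 0.43, 0.55 and -0.01 over the 285 tested targets with a symbol. Of those 285, 56 were called higher and 3 lower under paradoxical feedback, 80 higher and 1 lower under negative feedback, and 1 higher and none lower between both conditions. The first 2 shares are well above those over all targets, so the members' count is no sign of anything particular to them. Both feedback comparisons share the 4 uncontrolled cultures.

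**Figure D3:**
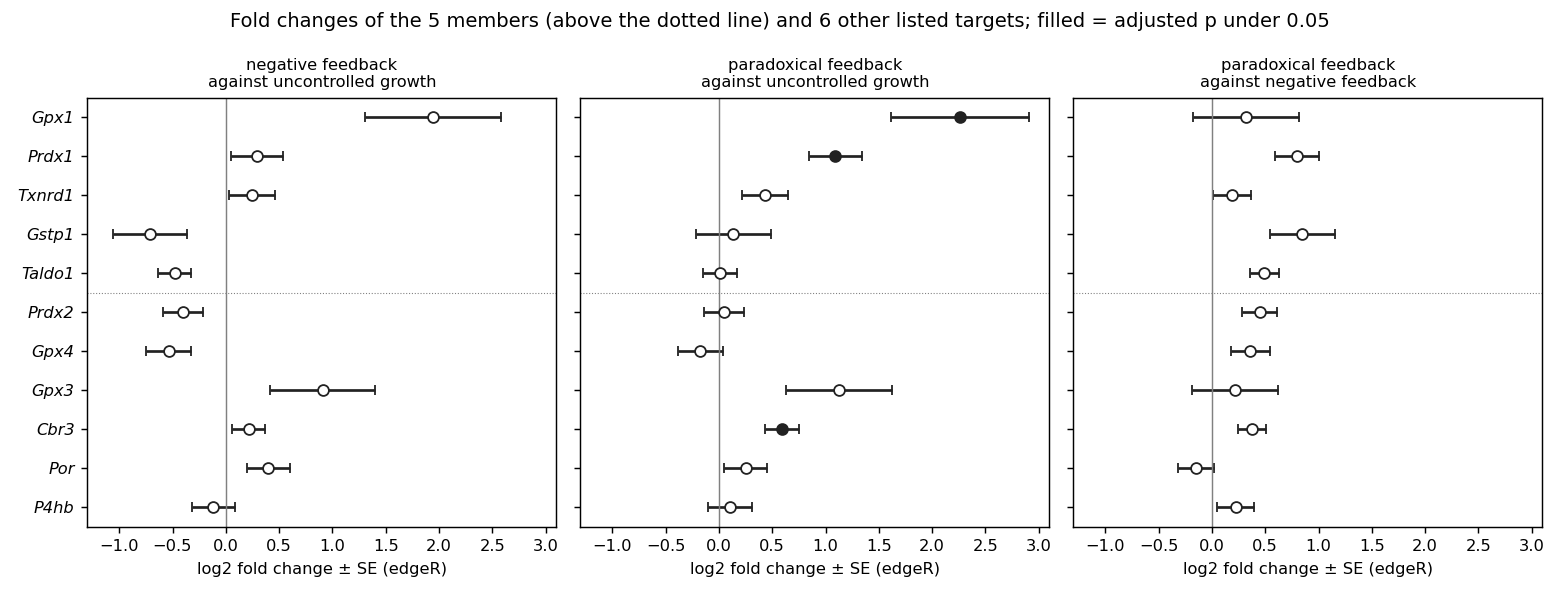
Log2 fold change ± SE by edgeR for the 5 members and 6 other listed targets in 3 comparisons (filled points have an adjusted p under 0.05). Filled points occur only for paradoxical feedback against uncontrolled growth, for Gpx1, Prdx1 and Cbr3; Gstp1 and Taldo1 lie below 0 under negative feedback.

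Among other genes of the redox and pentose phosphate systems, Cbr3 rose under paradoxical feedback. Of 137 listed genes 16 were matched. Among the genes counted here, 1 of 18 on the pentose phosphate and NADPH supply list was matched, namely Taldo1. On the list of superoxide dismutases, catalase and methionine sulfoxide reductases it was 0 of 9. Of the 11 matched genes that are not members, 7 were tested. Under paradoxical feedback 1 of these 7 rose and none fell, and under negative feedback and between both feedback conditions none was called. Over all tested targets 4.93% were called higher under paradoxical feedback, and 9.76 and 0.27% were called in the other comparisons, so nothing is read from 1 call among 7. Cbr3, a carbonyl reductase with shared reads, was at 33.2 to 50.5 CPM under paradoxical feedback with a median of 42.7, above the 25.1 to 30.4 CPM of uncontrolled cultures (0.59 ± 0.16, SE; edgeR adjusted p = 0.0369). The parental library, at 34.7 CPM of Cbr3, was above the uncontrolled range too. The call of Cbr3 was lost without any 1 uncontrolled culture or without paradoxical feedback culture 3, 5, 6 or 7. Those fits gave 0.54 to 0.63 (edgeR adjusted p from 0.0642 to 0.118). Leaving out paradoxical feedback cultures 3 and 7 together, which have the highest Cbr3, gave 0.49 (edgeR adjusted p = 0.125). Prdx1 and Cbr3, both with shared reads, were the listed genes reported here whose 7 paradoxical feedback cultures all lay above all 4 uncontrolled cultures. The same held for 7.94% of all tested targets, so nothing is read from this pair.

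The other tested genes of the lists missed edgeR's threshold in all 3 comparisons with every library used. Gpx4, the peroxidase that protects membrane lipids, and Prdx2, the cytosolic relative of Prdx1, were, like Taldo1, lower in negative feedback cultures 3 to 7. For Gpx4, negative feedback cultures 1 and 2 had 362 and 311 CPM and the other 5 had 154 to 213 CPM, against 267 to 376 CPM in uncontrolled cultures (log2 fold change -0.53 ± 0.21, SE; edgeR adjusted p = 0.103). For Prdx2 the first pair had 138 and 118 CPM and the other 5 had 70.7 to 97.9 CPM, against 113 to 138 CPM (-0.40 ± 0.19, SE; edgeR adjusted p = 0.153). Gpx4 was called lower under negative feedback without culture 1 or 2 (edgeR adjusted p = 0.0130 and 0.0372) and by limma-voom (adjusted p = 0.0451). Prdx2 was called without culture 1, lower under negative feedback than in uncontrolled cultures and than under paradoxical feedback (edgeR adjusted p = 0.0314 and 0.0430). Without cultures 3 to 7 the differences from uncontrolled growth were 0.05 for Gpx4 and 0.06 for Prdx2. The targets have 933 and 680 nt. Gpx3, a secreted peroxidase, stayed between 0.51 and 3.40 CPM, and Gpx7 between 0 and 0.90 CPM. P4hb, the protein disulfide isomerase of the endoplasmic reticulum, ranged from 633 to 1630 CPM and Por, the electron donor of cytochromes P450, from 14.2 to 28.1 CPM. Gpx2, Gpx5 and the metallothioneins Mt1 and Mt2 were too low to be tested, and Gpx5, Mt1 and Mt2 were listed at 0 in all 19 libraries. The metallothionein targets have only 186 nt.

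Per unit length, Gstp1 had the highest mean of the members in each culture condition, but not the highest level in every culture. In uncontrolled cultures it reached 1255 ± 68.6 TPM (SD, n = 4), followed by Txnrd1 at 357 ± 21.3 TPM, Taldo1 at 206 ± 10.1 TPM, Gpx1 at 137 ± 95.1 TPM and Prdx1 at 124 ± 19.2 TPM. Gpx1 overlapped both of its neighbours in that order. Under negative feedback the order was Gstp1 at 867 ± 242 TPM (SD, n = 7), Gpx1 at 678 ± 355 TPM, Txnrd1 at 523 ± 150 TPM, Prdx1 at 181 ± 28.1 TPM and Taldo1 at 173 ± 18.0 TPM. These means mix unlike cultures: Gstp1 was at 1124 and 1264 TPM in cultures 1 and 2 against 127 and 213 TPM of Gpx1. In cultures 3 to 7 Gstp1 was at 565 to 842 TPM and Gpx1 at 747 to 996 TPM, and Gpx1 was the higher in cultures 4 to 7. Under paradoxical feedback it was Gstp1 at 1435 ± 810 TPM (SD, n = 7), Gpx1 at 646 ± 365 TPM, Txnrd1 at 498 ± 189 TPM, Prdx1 at 279 ± 136 TPM and Taldo1 at 214 ± 33.1 TPM. In both feedback conditions each gene overlapped the next one in the order, except Txnrd1 and Prdx1 under negative feedback. On this scale the low Taldo1 of negative feedback cultures 3 to 7 was nearer to the uncontrolled level, at 148 to 180 TPM against 192 to 214 TPM. Txnrd1 there stood further above it, at 573 to 646 TPM against 326 to 372 TPM. Prdx1 there was at 162 to 221 TPM, above the 98.7 to 141 TPM of uncontrolled cultures, which it overlapped in CPM. Gstp1 there stayed below the 1163 to 1309 TPM of uncontrolled cultures. Effective lengths were the same in all libraries, so the step from CPM to TPM shifted every target of a library alike. These shifts are therefore not particular to any member. TPM was not tested.

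Among the paradoxical feedback cultures, numbers 3 and 7 were the highest for Gstp1, Prdx1 and Txnrd1. Relative to the median of the 7 cultures, culture 3 had 2.23 times the Gstp1, 1.69 times the Prdx1 and 1.41 times the Txnrd1. Culture 7 had 2.15, 2.19 and 1.54 times the group median of these genes. For Prdx1 culture 4 was close to culture 3, at 1.56 times the median. Of the other listed genes reported here, only Cbr3 ranked highest in cultures 3 and 7, at 1.18 and 1.13 times its median. The remaining members, Taldo1 and Gpx1, were not highest in this pair of cultures. Taldo1 was at 0.920 and 0.916 times its median in cultures 3 and 7, the lowest values of the group, and Gpx1 at 0.440 and 1.16 times. Gpx1 was instead highest in cultures 6 and 5, at 2.87 and 2.10 times its median, where Gstp1, Prdx1 and Txnrd1 were at 0.895 to 1.01 times theirs. P4hb was lowest in cultures 3 and 7, at 0.437 and 0.610 times its median. Total counts of cultures 3 and 7 were 12.1 and 11.9 M, within the range of the group (11.5 to 12.8 M). These cultures were singled out after their values were seen, and no test was made between them and the others.

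**Figure D4:**
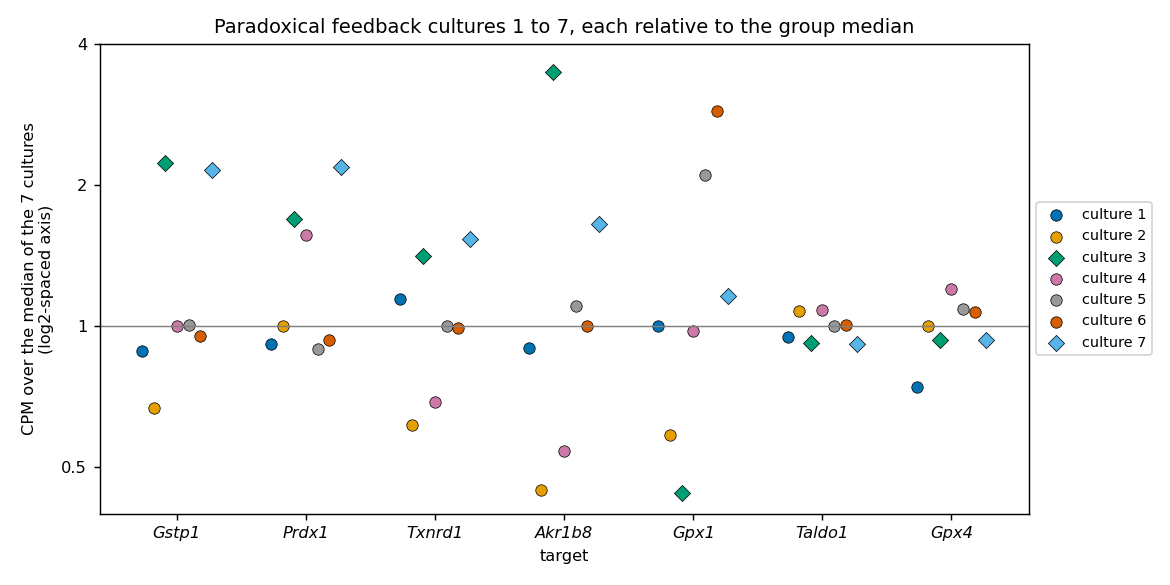
CPM of 7 targets in each paradoxical feedback culture divided by the median of the 7 cultures (log2-spaced axis; diamonds mark cultures 3 and 7). Gstp1, Prdx1 and Txnrd1 are highest in cultures 3 and 7, Gpx1 in cultures 6 and 5, and Taldo1 stays between 0.916 and 1.08 times its median. Akr1b8, chosen for its likeness to Txnrd1 over these libraries, is also highest in cultures 3 and 7.

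The members differed in the genes whose profiles were most like theirs. Likeness was measured as the Pearson correlation of log2 CPM with each of 283 other tested targets with a symbol over 19 libraries, which share the culture conditions and the split among negative feedback cultures, so it is given as a description only. Gpx1 was most like Gnai2, a G protein alpha subunit (0.94), Impdh2, an enzyme of guanine nucleotide synthesis with shared reads (0.89), and Sptlc2 of sphingolipid synthesis (0.82). Prdx1 was most like the Actb target (0.76), which is near 0, Cbr3 (0.75) and Chcr2 with shared reads (0.67). Txnrd1 was most like Akr1b8, an aldo-keto reductase with shared reads (0.84), the chaperonin subunit Tcp1 with shared reads (0.75) and the topoisomerase Top1 (0.74). Akr1b8 was at 58.8 to 96.9 CPM in uncontrolled cultures, and under paradoxical feedback at 562 CPM in culture 3 and 266 CPM in culture 7 with 71.9 to 178 CPM in the others. It was picked for its likeness to Txnrd1, itself highest in cultures 3 and 7, so this is no separate observation. In cultures 3 and 7 Tcp1 was at 1.27 and 0.859 times its group median, and Top1 at 1 and 0.833 times. Gstp1 was most like Orc2 of the origin recognition complex with shared reads (0.71), Taldo1 (0.71) and the repair protein Xrcc1 (0.69). Taldo1 was most like Gpx4 (0.92), the respiratory complex I subunit Ndufb11 (0.90) and the repair protein Xrcc5 with shared reads (0.88). The Gpx1 and Gnai2 levels were low together in uncontrolled culture 1, at 13.3 and 36.6 CPM, and Gnai2 was at 187 to 240 CPM in negative feedback cultures 3 to 7 against 75.2 and 71.9 CPM in cultures 1 and 2.

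**Figure D5:**
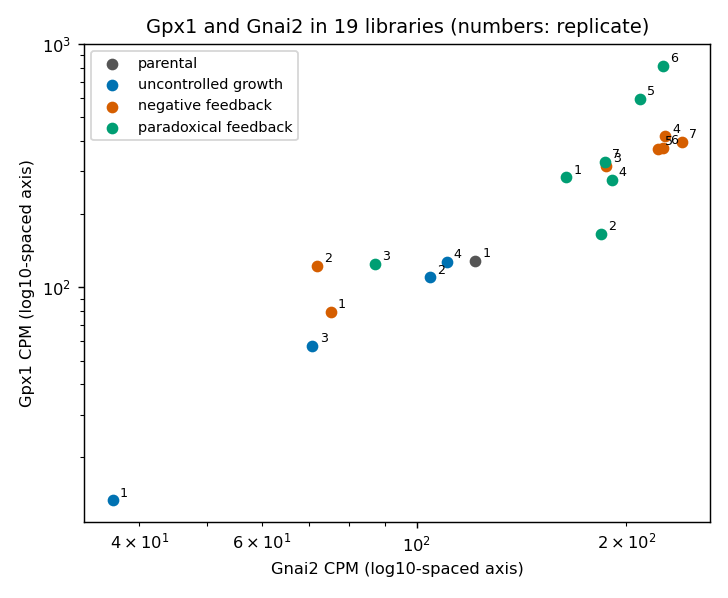
Gpx1 against Gnai2 in CPM (both axes log10-spaced), 1 point per library with its replicate number, coloured by group. Uncontrolled culture 1 is lowest on both axes (13.3 and 36.6 CPM), and paradoxical feedback culture 3 lies among uncontrolled cultures and negative feedback cultures 1 and 2.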

How the data were processed

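Trim Galore, a read trimmer, and kallisto, which assigns reads to transcripts, are listed with no version per the submitters' processing notes. The build of the index was not given in the sources used here. Per the file headers, the deposited tables give an estimated count and a TPM value per transcript target; TPM is the estimated count scaled by effective length by the authors. Symbols came from a RefSeq table of assembly CriGri-PICRH-1.0, used for names only, which matched 528 targets. Counts were not summed to genes. Estimated counts were rounded, filtered with filterByExpr (28555 targets, all 5 members among them), normalized by TMM and tested with edgeR 4.0.16 (R 4.3.3, quasi-likelihood test, 1 coefficient per group, all 19 libraries in 1 fit). Adjusted p-values are Benjamini-Hochberg values across the whole tested table, and a target was called under 0.05. The parental library entered no comparison. DESeq2 1.42.0 and limma 3.58.1 were alternatives. A target was called whole where every estimated count was whole within 1e-06. The genes described were the members, the tested genes of the redox lists, and the 3 tested targets with a symbol most correlated with each member. The members and lists were chosen with earlier results of these data known. One tested gene of the lists is not reported here and is left out of their counts and of the correlations.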

Additional observations from a re-analysis of the deposited data

Results flagged for a closer look

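In 33 sets of values (11 tested genes in 3 groups), 1 held a library set apart from the rest, and chance gives about 1 in 20. Gpx7, which lay near the counting floor, was left out of these sets. It was at 0.900 CPM (11 counts) in negative feedback culture 5 and at most 0.0973 CPM in the other cultures of that condition. P4hb in negative feedback culture 1 was at 1297 CPM against 1103 CPM in the next highest of 7 cultures, a gap of 0.700 of the group's range, which is above Dixon's critical value for 7 samples. None of the 5 members was flagged in this way.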

How the results depend on the processing

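Counts of called targets are given for negative against uncontrolled, paradoxical against uncontrolled and paradoxical against negative, in that order; they were 2787, 1835 and 77, and the called members 0, 2 and 0. RLE scaling gave 11 targets and library size alone 42 for paradoxical against negative, and no filter 2. DESeq2 gave 6361, 4730 and 1777, limma-voom 5039, 2589 and 297, only the groups compared 10, 4956 and 0, and the covariate 6, 1145 and 697. Called members for paradoxical against uncontrolled fell to 1 with RLE, library size alone, no filter, limma-voom or the covariate. For negative against uncontrolled and for paradoxical against negative they rose to 2 and 2 with DESeq2 and 1 and 1 with limma-voom, and in the latter to 1 with the covariate. The replicate block left 4, 3 and 0 targets and 0 members. Same-numbered cultures did not deviate together (correlations from -0.156 to 0.107, 1 of 7 pairs over 0.1 between both feedback conditions), so the numbers are not taken as pairs. With the block, paradoxical against uncontrolled gave Gpx1 1.88 (edgeR adjusted p = 0.191) and Prdx1 1.06 (edgeR adjusted p = 0.122). Leaving out 1 library gave 7 to 6938, 127 to 3204 and 0 to 989 targets and 0 to 2 members in each comparison; without any 1 uncontrolled culture the count for negative against uncontrolled was 7 to 15, and it was 6938 and 6335 without negative feedback culture 1 or 2. Left out together, a choice made after seeing the data, negative feedback cultures 3 to 7 gave 13, 4926 and 2454 targets, and paradoxical feedback cultures 3 and 7 gave 2002, 484 and 8 targets and 0 members for paradoxical against uncontrolled.

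None of the differences whose sign turned was called. For paradoxical against uncontrolled, Taldo1 was -0.042 with RLE and with DESeq2 and -0.099 with library size alone, Prdx2 -0.0091, -0.0092 and -0.073 in the same order, P4hb -0.017 with library size alone, Gstp1 -0.0035 with limma-voom and -0.36 without cultures 3 and 7, and Gpx4 0.17 with the covariate. Leaving out 1 library gave Taldo1 -0.011 to 0.051, Prdx2 -0.010 to 0.12 and Gstp1 -0.058 to 0.24, and, for paradoxical against negative, Gpx1 -0.0019 to 0.47 and Gpx3 -0.019 to 0.36. For negative against uncontrolled, the covariate gave Txnrd1 -0.052 and P4hb 0.043. Without cultures 3 to 7 Txnrd1 was -0.12, Gstp1 0.026, Prdx2 0.058, Gpx4 0.055 and Por -0.028, and, for paradoxical against negative, Prdx2 -0.0012, Gpx4 -0.22 and Por 0.29. Without paradoxical cultures 3 and 7 that comparison gave Txnrd1 -0.061 and Gpx3 -0.0023. The causes were not tested. Over 28 alternatives for paradoxical against uncontrolled, Prdx1 was called in 23, Cbr3 in 16 and Gpx1 in 8, all higher throughout. At 162 counts in its lowest library Gpx1 was well above the counting floor, whereas Gpx7, with at most 11 counts, was near it and no fold is given.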
